A study of Mus musculus with 36 samples.

Results

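Cbfa2t3, Cytip, Cmah, P2ry12 and Ighm are 5 genes of the mouse macrophage line RAW 264.7 that were selected because they were near zero or strongly lower with lipopolysaccharide (LPS) alone. They are 5 of the 53465 genes in the count table, each found by its symbol, and all 5 passed the filter on low counts that left 16988 genes for testing. LPS is a glycolipid of Gram-negative bacterial membranes. Cells of wild-type genotype received LPS (10 µg/mL) together with melatonin in 5 concentrations (0.1 µM, 1 µM, 10 µM, 100 µM and 1 mM), LPS without melatonin, melatonin without LPS in the same concentrations, or solvent only. There were 12 such groups, each of 3 libraries. Where both agents were given, melatonin preceded LPS by 30 min, and RNA was taken after 12 h of treatment. The question for these genes is at which melatonin dose, if any, each was again detected in the presence of LPS.

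LPS binds Toll-like receptor 4 on macrophages and, through NF-κB and interferon regulatory factors, turns on inflammatory genes, while many genes of the resting cell are turned down. The 5 genes have unrelated roles. Cbfa2t3 encodes ETO2, a transcriptional co-repressor that joins E-protein, Tal1 and Lmo2 complexes in blood progenitors. Cytip encodes a cytohesin-binding scaffold that restrains integrin adhesion of leukocytes. Cmah encodes the hydroxylase that turns the sialic acid Neu5Ac into Neu5Gc, P2ry12 the Gi-coupled ADP receptor of platelets and resting microglia, and Ighm the constant region of the immunoglobulin mu heavy chain, which B cells make.

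The genes lie on different chromosomes of mm10. Cbfa2t3 spans chr8:122625141-122699109, Cytip chr2:58129137-58195532, P2ry12 chr3:59216272-59262871 and Ighm chr12:113418558-113422730, all on the minus strand, and Cmah spans chr13:24327404-24477377 on the plus strand. Ighm is annotated as an immunoglobulin constant gene and the others as protein-coding genes (GENCODE M21). The RefSeq promoter windows (250 bases before to 50 after the start, GRCm38.p6) of the 4 genes that had no read with LPS alone are shown so that their start regions can be compared; Ighm had no entry. Capitals mark matches, on either strand, to the PU.1-type core GAGGAA, the interferon-stimulated response element (GAAA, any 2 bases, GAAA) or the NF-kB consensus. No marked match overlaps another.
Cbfa2t3 promoter, chr8:122699060-122699359, minus strand: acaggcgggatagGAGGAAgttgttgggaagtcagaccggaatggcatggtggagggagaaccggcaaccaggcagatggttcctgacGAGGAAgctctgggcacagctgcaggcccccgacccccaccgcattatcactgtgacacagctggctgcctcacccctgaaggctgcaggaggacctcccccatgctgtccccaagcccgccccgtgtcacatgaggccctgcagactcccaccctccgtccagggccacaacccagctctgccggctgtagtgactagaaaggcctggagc
Cytip promoter, chr2:58160073-58160372, minus strand: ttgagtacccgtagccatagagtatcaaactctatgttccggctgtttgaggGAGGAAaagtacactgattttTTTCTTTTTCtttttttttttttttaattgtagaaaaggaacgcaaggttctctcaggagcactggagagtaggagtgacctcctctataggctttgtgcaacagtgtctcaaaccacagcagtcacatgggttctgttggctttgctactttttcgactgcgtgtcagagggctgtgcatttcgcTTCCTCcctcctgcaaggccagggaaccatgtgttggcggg
Cmah promoter, chr13:24327154-24327453, plus strand: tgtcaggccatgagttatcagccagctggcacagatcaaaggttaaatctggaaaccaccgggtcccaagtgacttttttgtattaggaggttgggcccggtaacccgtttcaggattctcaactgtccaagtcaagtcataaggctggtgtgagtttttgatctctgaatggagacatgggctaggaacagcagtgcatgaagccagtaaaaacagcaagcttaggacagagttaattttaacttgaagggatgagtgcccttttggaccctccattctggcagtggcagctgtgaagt
P2ry12 promoter, chr3:59262936-59263235, minus strand: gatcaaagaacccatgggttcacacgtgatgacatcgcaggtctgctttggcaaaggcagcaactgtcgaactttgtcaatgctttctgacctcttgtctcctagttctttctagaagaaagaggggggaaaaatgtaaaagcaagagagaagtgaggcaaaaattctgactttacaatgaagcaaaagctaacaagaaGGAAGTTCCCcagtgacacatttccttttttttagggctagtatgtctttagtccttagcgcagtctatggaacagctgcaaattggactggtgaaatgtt
The Cbfa2t3 and Cytip windows held 2 GAGGAA matches each, a motif found in 28.3% of 32851 promoter windows of the same length. Cytip also held 1 interferon-stimulated response element (3.44% of windows) and P2ry12 held 1 NF-kB consensus match (8.46%), and none of the 4 held the AP-1 motif TGANTCA (7.81%). The E-box core CANNTG, not capitalised here, was in all 4 windows, with 4 matches in Cbfa2t3, 2 in Cytip, 4 in Cmah and 3 in P2ry12, and in 72.3% of all windows. No marked motif was shared by all 4 genes. The Cytip window lies 35410 bases from the start of the GENCODE gene and the P2ry12 window 114 bases from it, so the Cytip window belongs to an internal start.

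Between 4203313 and 7590271 reads were counted per library. Levels are counts per 1e+06 counted reads (CPM, library sizes scaled by TMM), and changes are log2 fold changes with their SE. They come from edgeR's quasi-likelihood test on all 36 libraries, with p adjusted by Benjamini-Hochberg over the 16988 genes and a threshold of 0.05. Of 10 macrophage markers, 9 were detected in every library, while Mertk had 19 counts in all. In 2 libraries, replicate 3 of 1 mM melatonin alone and replicate 1 of 1 µM melatonin alone, the profile went against the label: a log2 score of 167 genes higher and 104 lower under LPS at the top melatonin dose than at the bottom one was 0.245 in the 1 mM library, against 1.04 and 0.854 in its group, and 1.21 in the 1 µM library, against -0.169 and -0.0617 in its group. The LPS responses at 1 mM are also given without both libraries. Whether replicates were grown as separate cultures is not stated in the labels, and the p-values therefore reflect only library-to-library spread, possibly technical.

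With LPS alone, 4 of the 5 genes gave no read in any of the 3 libraries. Cbfa2t3 had 0, 0 and 0 CPM with LPS, against 21.1, 23.1 and 14.5 CPM with solvent. Cytip had 0 CPM in the 3 LPS libraries and 8.16, 15.2 and 25.8 CPM in the solvent libraries. These genes were chosen by this contrast, so the values are a description and carry no test.
Cmah, likewise, had 0 CPM in each LPS library, against 20.0, 15.9 and 13.5 CPM with solvent, and P2ry12 had 0 CPM in each LPS library, against 12.1, 15.1 and 15.4 CPM. Set against 3 counts over the 3 LPS libraries, Cbfa2t3 was at least 130.1-fold lower, Cytip and Cmah at least 109-fold lower and P2ry12 at least 94.4-fold lower with LPS than with solvent, bounds that cover counting error only. Ighm stayed well detected, at 30.3, 65.5 and 53.5 CPM with LPS, against 276, 312 and 283 CPM with solvent, so that 17.1% of its solvent level was left. The LPS and solvent groups did not overlap for any of the 5 genes, which were chosen on this contrast. The share of all genes without overlap was not counted, so nothing is read from this. In these bulk samples, fewer cells of a type and less RNA per cell cannot be told apart.

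Complete absence of reads set the first 4 genes apart by construction. Of 8848 genes whose solvent mean reached 10 CPM, a limit set after the values were seen, 4 had 0 counts in all 3 LPS libraries, and they were Cbfa2t3, Cytip, Cmah and P2ry12. Of all genes tested, 8.09% were called lower with LPS than with solvent and 8.4% higher, and nothing is read from the 5 of 5 chosen genes called lower there. On the authors' deposited FPKM scale, which accounts for gene length, the solvent level of Ighm was 152 ± 9.38 FPKM, far above P2ry12 (5.48 ± 0.700), Cytip (2.39 ± 1.29), Cbfa2t3 (2.30 ± 0.522) and Cmah (1.52 ± 0.311; SD, n = 3 each). The 4 genes that reached 0 were therefore low in solvent per length as well.

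**Figure D1:**
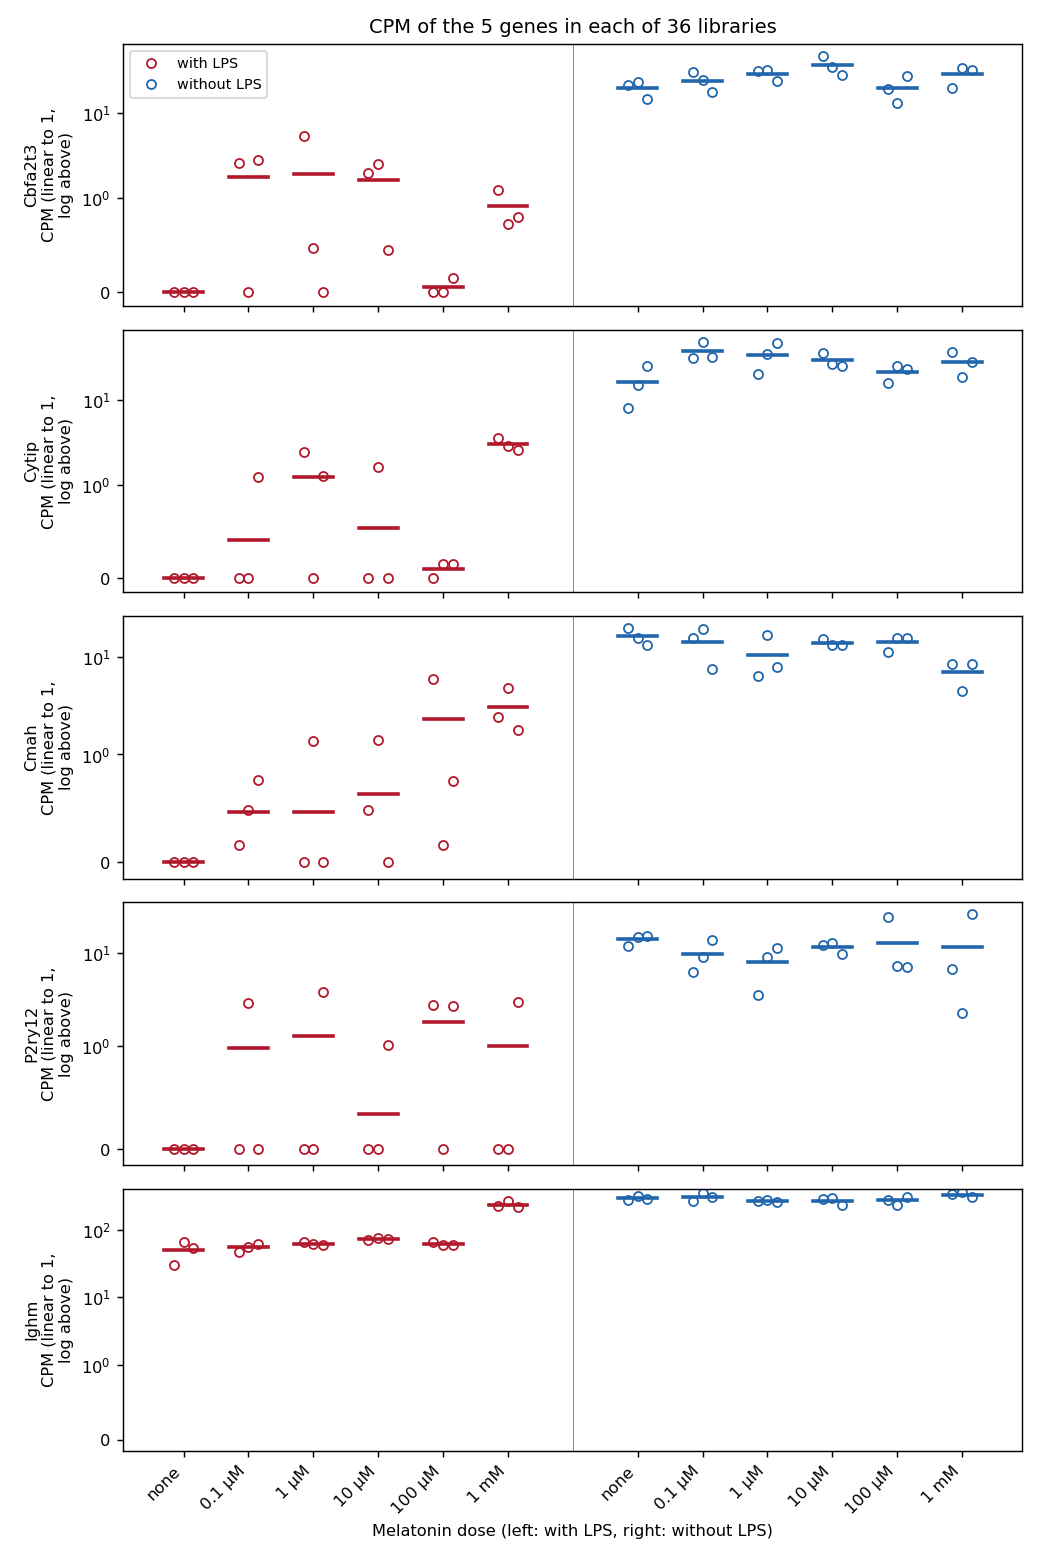
CPM of each gene (rows) in each of the 36 libraries by melatonin dose, with LPS on the left and without LPS on the right; circles are libraries, bars are means of 3, and the axis is linear up to 1 CPM and logarithmic above. Cbfa2t3, Cytip, Cmah and P2ry12 lie at 0 with LPS alone and at 0 to 5.98 CPM with LPS and melatonin, while Ighm with LPS and 1 mM melatonin sits at 218 to 264 CPM.

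Ighm was the gene whose return had a clear dose. In the presence of LPS it had 46.4, 55.9 and 61.1 CPM with 0.1 µM melatonin, 65.9, 60.7 and 58.5 CPM with 1 µM, 69.7, 75.9 and 73.5 CPM with 10 µM, 64.9, 58.8 and 58.5 CPM with 100 µM, and 221, 264 and 218 CPM with 1 mM. The 12 libraries from 0.1 to 100 µM lay within a narrow band, and the 3 libraries at 1 mM lay far above all of them. Melatonin alone gave 229.9 to 358 CPM over the 15 libraries of the 5 doses, which overlaps the solvent libraries. As a share of the level with the same dose of melatonin alone, Ighm under LPS was 17.8%, 23.3%, 27.1%, 22.4% and 70.9% from the lowest dose to the highest.

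The test of the step between neighbouring doses placed the change of Ighm between 100 µM and 1 mM. Ighm rose with 1 mM against 100 µM under LPS by 1.95 ± 0.17 on the log2 scale (edgeR quasi-likelihood test, adjusted p = 9.5e-11), and no other step of Ighm passed. With 1 mM against 0.1 µM under LPS the change was 2.11 ± 0.17 (adjusted p = 7.0e-12). The LPS response of Ighm, LPS with melatonin over the same melatonin dose alone, was -0.50 ± 0.16 at 1 mM and -2.49 ± 0.18 at 0.1 µM, and the difference between these responses was 2.00 ± 0.24 (adjusted p = 3.2e-07; 1.94 without the 2 libraries whose profile went against the label). At 1 mM the response of Ighm was still negative at the threshold (adjusted p = 0.0461; -0.56 and 0.0378 without those 2 libraries), with no overlap between the groups. That call was lost without replicate 1 or 3 of LPS with 1 mM melatonin (adjusted p = 0.138 and 0.139) and without replicate 1 or 2 of 1 mM melatonin alone (0.102 and 0.173). It was also lost in a fit of only those 6 libraries (0.240) and without the filter on low counts (0.0755).

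Cytip returned weakly, and at 1 mM in every library. Its levels under LPS were 0, 0 and 1.22 CPM with 0.1 µM melatonin, 2.41, 0 and 1.27 CPM with 1 µM, 0, 1.60 and 0 CPM with 10 µM, 0, 0.158 and 0.152 CPM with 100 µM, and 3.52, 2.88 and 2.59 CPM with 1 mM. Of the 12 libraries at the lower 4 doses, 6 had no Cytip read, whereas each library at 1 mM had more than any of those 12. The mean at 1 mM was 10.6% of that with 1 mM melatonin alone, where the gene had 37.2, 19.0 and 28.3 CPM. Cytip rose with 1 mM against 0.1 µM melatonin under LPS by 2.79 ± 0.86 (edgeR, adjusted p = 0.0348). That call was lost without replicate 1 or 2 of LPS with 0.1 µM (adjusted p = 0.168 and 0.172), without replicate 1 or 2 of LPS with 1 mM melatonin (0.0757 and 0.0614), and in a fit of only those 6 libraries (0.309). The step from 100 µM to 1 mM also passed (adjusted p = 0.0054; 0.101 in a fit of only those libraries), but rests on 2 counts in the 100 µM group against 56, so no fold is given. At 1 mM Cytip was still below melatonin alone, at -3.22 ± 0.68 (adjusted p = 7.7e-04; -3.22 and 0.0013 without the 2 libraries whose profile went against the label), and the difference from the response at 0.1 µM did not pass (3.22 ± 1.05, adjusted p = 0.126; 0.0332 with DESeq2 and 0.0132 without replicate 3 of LPS with 0.1 µM).

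Cmah had reads at every dose, but in all 3 libraries only with 0.1 µM, 100 µM and 1 mM melatonin. Under LPS it had 0.159, 0.488 and 0.764 CPM with 0.1 µM melatonin, 0, 1.39 and 0 CPM with 1 µM, 0.482, 1.42 and 0 CPM with 10 µM, 5.98, 0.158 and 0.758 CPM with 100 µM, and 2.45, 4.89 and 1.80 CPM with 1 mM. The 100 µM mean comes mostly from replicate 1, with 37 of the 43 counts of that group, and the other two libraries lay within the range of the lower doses, so no onset at 100 µM is shown. With 1 mM melatonin alone Cmah had 8.45, 4.52 and 8.48 CPM, a range that the LPS libraries at that dose reach into. Its LPS response did not pass at 1 mM (-1.21 ± 0.82, adjusted p = 0.424; -1.07 and 0.558 without the 2 libraries whose profile went against the label), having passed at each of the 4 lower doses, from -4.88 ± 0.99 at 0.1 µM to -2.64 ± 0.85 at 100 µM. The call at 100 µM was lost without replicate 2 or 3 of LPS with 100 µM melatonin (adjusted p = 0.138 and 0.134) and without replicate 2 or 3 of 100 µM melatonin alone (0.0597 and 0.0610). A response that misses the threshold does not show a full return: the 1 mM mean under LPS was 42.6% of that with 1 mM melatonin alone (47.0% without replicate 3 of that group) and 18.5% of that with solvent. With 1 mM melatonin alone Cmah lay below all solvent libraries (7.15 ± 2.28 against 16.5 ± 3.32 CPM), though the difference did not pass (edgeR, adjusted p = 0.615). The part of each group in the smaller gap at 1 mM was not tested. Neither the difference between 1 mM and 0.1 µM under LPS (2.65 ± 0.96, adjusted p = 0.0866; 0.0401 with DESeq2) nor that between the LPS responses at those doses (3.66 ± 1.25, adjusted p = 0.151) passed.

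Cbfa2t3 stayed far below its level without LPS at every dose. Under LPS it had 2.54, 0 and 2.75 CPM with 0.1 µM melatonin, 5.28, 0.463 and 0 CPM with 1 µM, 1.93, 2.49 and 0.445 CPM with 10 µM, 0, 0 and 0.152 CPM with 100 µM, and 1.23, 0.719 and 0.798 CPM with 1 mM. No order with dose is seen, and 4 of the 12 libraries at the lower doses had no read. Melatonin alone gave 13.2 to 46.7 CPM over its 15 libraries, none of which overlapped a library with LPS. The LPS response passed at each dose, including 1 mM (-4.92 ± 0.78, adjusted p = 1.3e-05; -4.83 and 3.2e-05 without the 2 libraries whose profile went against the label), where 3.23% of the level with melatonin alone was left, against 7.42% at 0.1 µM. The difference between the responses at 1 mM and 0.1 µM was -1.19 ± 1.02 (adjusted p = 0.713). The pseudogene Gm15899 lies inside Cbfa2t3 on the same strand and had 866 counts over all libraries, with means of 1.46 to 5.88 CPM and 4.43 CPM with LPS alone. Reads shared between the 2 were not tested.

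P2ry12 appeared in 1 or 2 libraries of each dose, without order. Its levels under LPS were 0, 2.93 and 0 CPM with 0.1 µM melatonin, 0, 0 and 3.80 CPM with 1 µM, 0, 0 and 1.04 CPM with 10 µM, 2.75, 0 and 2.73 CPM with 100 µM, and 0, 0 and 2.99 CPM with 1 mM. In 7 of the 12 libraries at the lower doses and in 2 of 3 at 1 mM there was no read, and in those that held the gene it had 7 to 24 counts. This spread is reflected in the gene's fitted dispersion, 1.00, above that of 73.5% of genes, compared with 0.0212 for Ighm. Melatonin alone gave 2.26 to 26.3 CPM, and both ends of that range belong to the 1 mM group (6.78, 2.26 and 26.3 CPM). The library at 26.3 CPM is replicate 3, whose profile went against its label. In the main edgeR fit the response of P2ry12 passed at 10 µM alone (-4.93 ± 1.45, adjusted p = 0.0136). That call was lost without replicate 1 or 2 of LPS with 10 µM melatonin (adjusted p = 0.0715 and 0.0698). Without the filter on low counts the response also passed at 0.1 µM (adjusted p = 0.0015), 1 µM (0.0170), 100 µM (0.0069) and 1 mM (7.8e-04). In a fit of only the compared libraries it also passed at 0.1 µM (0.0411) and 100 µM (0.0200). Which doses passed therefore depended on the filter and the fit. A call was gained without the only library that held reads in the LPS group, which left that group at 0, at 0.1 µM (without replicate 2, adjusted p = 0.0057), 1 µM (without replicate 3, 0.0070) and 1 mM (without replicate 3, 0.0065). At 1 mM the response over all libraries was -3.64 ± 1.33 (adjusted p = 0.0817), and -2.25 (adjusted p = 0.374) without the 2 libraries whose profile went against the label.
The P2ry12 gene lies within Med12l, a Mediator subunit gene on the opposite strand with 809 counts in all. Med12l itself averaged 1.30 ± 1.41 CPM with LPS and 2.82 ± 0.532 CPM with solvent. In its LPS response it was called lower at 0.1, 1, 10 and 100 µM melatonin (adjusted p = 0.0084, 0.0300, 0.0151 and 0.0054), where the LPS groups held 3 to 10 counts, and not at 1 mM (1.76 ± 1.97 CPM with LPS and 1 mM melatonin, against 6.36 ± 3.16 CPM with 1 mM melatonin alone, adjusted p = 0.377). The strand setting of the counting is not given in the sources used here, so reads of the 2 genes cannot be told apart.

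**Figure D2:**
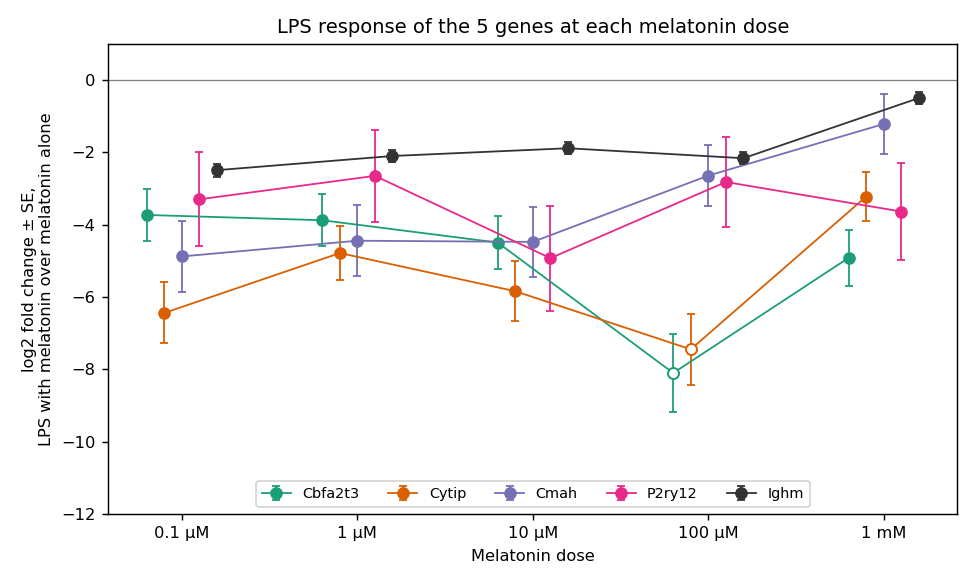
Log2 fold change ± SE of LPS with melatonin over the same dose of melatonin alone, for each of the 5 genes at 5 doses (3 libraries per group); open circles rest on 1 or 2 counts in the LPS group. Ighm lies at -0.50 at 1 mM and at -2.49 at 0.1 µM, whereas Cbfa2t3 and P2ry12 show no approach to 0.

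Over the 5 genes, the LPS response was called lower for 4, 4, 5, 4 and 3 genes, in order of rising dose. Among all genes tested the shares called lower were 7.71%, 7.4%, 7.65%, 7.72% and 4.75% in the same order. Since the 5 genes were chosen on LPS alone, nothing is read from their standing above these shares, and the difference in count between doses was not tested. None of the first 3 steps between neighbouring doses called a gene in the edgeR test. The background of those steps was 0.0118% lower and 0.0942% higher for 1 µM against 0.1 µM, 0.0235% lower and 0% higher for 10 µM against 1 µM, and 0% in each direction for 100 µM against 10 µM. At an unadjusted p under 0.05 those steps gave 0, 0 and 1 gene (Cbfa2t3, lower with 100 µM than with 10 µM, adjusted p = 0.765), and DESeq2 also called 0. With 1 mM against 100 µM, 2 of 5 were called higher, Ighm and Cytip, against 1.16% of all genes. Cbfa2t3 was also called higher there with DESeq2 (adjusted p = 0.0460) and in edgeR without the filter on low counts (0.0156). Those calls rest on 1 count in the 100 µM group against 17, so no fold is given. With 1 mM against 0.1 µM, Ighm and Cytip were called higher, against 2.83% of all genes higher and 5.28% lower. The LPS response at 1 mM exceeded that at 0.1 µM for 1 of 5, Ighm, against 0.471% of all genes.

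Set against LPS alone, the group that chose the genes and is shared by all 5 comparisons, 1 of 5 was called higher by edgeR with 0.1 µM melatonin (Cbfa2t3), 1 with 1 µM (Cbfa2t3), 0 with 10 µM, 1 with 100 µM (Cmah) and 4 with 1 mM (all but P2ry12). The background was 0.653%, 0.294%, 0.194%, 0.636% and 2.84% of all genes higher at those doses. At 10 µM, 4 of 5 had an unadjusted p under 0.05 and DESeq2 called 1. Because 4 of the genes were chosen for having no read with LPS alone, any library with a read lies above that group, and nothing is read from these calls at any dose, 1 mM included. As a description, at 1 mM Cytip was at least 19.9-fold, Cmah at least 20.3-fold and Cbfa2t3 at least 6.08-fold above LPS alone, and the log2 difference of Ighm was 2.24 ± 0.17. The Cbfa2t3 call was lost without replicate 1 of LPS with 1 mM melatonin (adjusted p = 0.0796) and without any 1 of the LPS libraries (0.0913 to 0.0948), and the call of Cmah in a fit of only those 6 libraries (0.0502).

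Melatonin alone moved none of the 5 genes past the threshold at any dose, with 0 of 5 also at an unadjusted p under 0.05 and with DESeq2. These comparisons share the solvent libraries. Few genes of the whole table changed there: 0.206% lower and 0.135% higher at 0.1 µM, 0.0824% and 0.0648% at 1 µM, 0.0706% and 0.0118% at 10 µM, 0.0235% and 0.0589% at 100 µM, and 0.318% and 0.1% at 1 mM. Of these 25 differences the largest on the log2 scale was that of Cytip, with 31.9, 49.0 and 32.9 CPM at 0.1 µM melatonin, against 8.16, 15.2 and 25.8 CPM with solvent (1.21 ± 0.61, adjusted p = 0.544). Those ranges did not overlap.

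**Figure D3:**
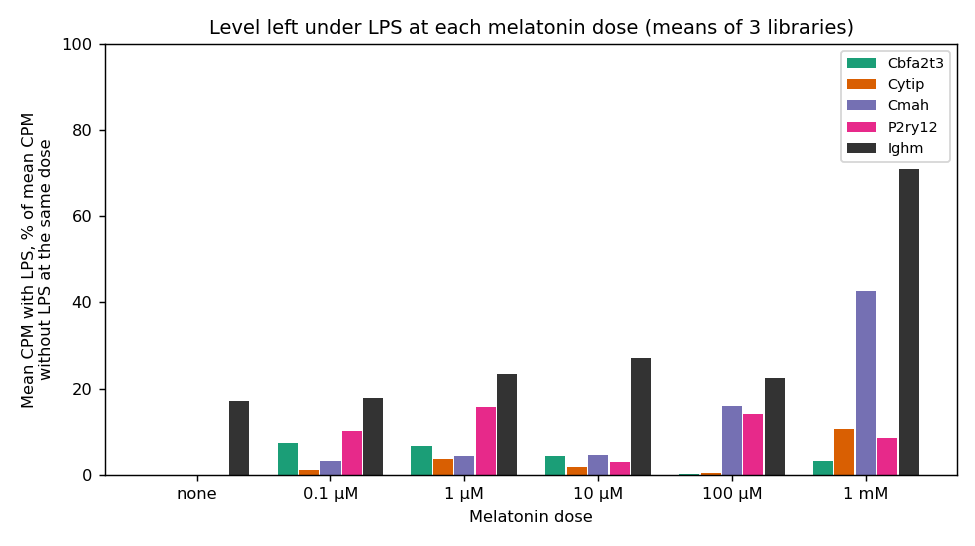
Mean CPM with LPS as a percentage of the mean CPM without LPS at the same melatonin dose, for each gene (means of 3 libraries, so no error is shown; "none" is LPS over solvent). At 1 mM the bars stand at 70.9% for Ighm, 42.6% for Cmah, 10.6% for Cytip, 8.47% for P2ry12 and 3.23% for Cbfa2t3; the P2ry12 bar rests on reads in 1 LPS library and would stand at 22.1% without replicate 3 of 1 mM melatonin alone, whose profile went against its label.

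Ordered by their mean over the 12 groups, all 5 genes had the 6 groups without LPS above the 6 with LPS. The genes were chosen as low with LPS alone. The share of all genes with this order, or with the overlaps below, was not counted, so both are descriptions only. For Cbfa2t3 and Cytip none of the 18 libraries with LPS reached the lowest library without LPS. For P2ry12, 5 of 18 did, lying above the 2.26 CPM of 1 library of 1 mM melatonin alone. For Cmah and Ighm the lowest group without LPS overlapped the highest group with LPS, LPS with 1 mM melatonin reaching into 1 mM melatonin alone for Cmah and into 1 µM melatonin alone for Ighm. Ighm in replicate 2 of LPS with 1 mM (264 CPM) also exceeded the lowest libraries of 10 µM (229.9 CPM) and 100 µM melatonin alone (233 CPM). Cmah in replicate 1 of LPS with 100 µM (5.98 CPM) also exceeded the lowest library of 1 mM melatonin alone (4.52 CPM). Neighbours within the groups without LPS overlapped in every gene. LPS with 1 mM melatonin was the highest LPS group for Ighm (235 ± 25.7 CPM), Cytip (3.00 ± 0.477) and Cmah (3.05 ± 1.63), and its range did not overlap that of the next group for Ighm and Cytip. For Cbfa2t3, 3 LPS groups had higher means (0.914 ± 0.273 CPM at 1 mM), and for P2ry12 2 had (0.998 ± 1.73 CPM; SD, n = 3 each).

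The genes whose log2 CPM followed each gene most closely over the 36 libraries, of 9442 genes compared, are given as a description, since the libraries share the LPS treatment. Ighm was most like Serinc3 (Pearson r = 0.961), a serine incorporator, Mycn (0.956), a MYC-family transcription factor, and Fcgr3 (0.948), a low-affinity IgG receptor. Serinc3 had 222 to 368 CPM with LPS and 1 mM melatonin, 93.6 to 123 CPM with LPS alone and 548 to 615 CPM with solvent, so the pattern of Ighm was not confined to an immunoglobulin gene. Cytip was closest to Scd2 (0.944), Serinc3 (0.936) and Jade1 (0.934), and Cbfa2t3 to the histone genes Hist1h2ao (0.929) and Hist1h2ap (0.922) and to Scd2 (0.922), a stearoyl-CoA desaturase. Hist1h2ao and Hist1h2ap have near-identical copies, so their counts are uncertain. Cmah was closest to S1pr1 (0.939), a sphingosine-1-phosphate receptor, Ulbp1 (0.922) and Mrps6 (0.916), a mitochondrial ribosomal protein. S1pr1 averaged 5.86 ± 1.80 CPM with LPS and 1 mM melatonin, 0.305 ± 0.303 CPM with LPS and 30.2 ± 6.84 CPM with solvent. P2ry12 had the loosest matches, Adssl1 (0.886), Rrm1 (0.885) and Trem2 (0.883), a microglial and macrophage receptor. Among the 5 genes themselves the highest r was 0.923 (Cytip and Ighm) and the lowest 0.700 (P2ry12 and Cbfa2t3).

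Partners of ETO2 were lower with LPS in part. Of 21 tested genes of its complexes, 6 fell and 1 rose with LPS against solvent, with a median log2 fold change of -0.65 beside -0.02 over all genes. For this and the lists below, 8.09% of all genes tested fell and 8.4% rose in that comparison. With 1 mM against 0.1 µM melatonin under LPS, 5.28% fell and 2.83% rose. The list counts were not tested against these shares. Lyl1, an E-protein partner, had 32.2 ± 13.8 CPM with LPS and 154 ± 28.6 CPM with solvent (-2.26 ± 0.24), Lmo2 fell by 1.11 ± 0.22 and Runx1 by 0.92 ± 0.20, while Lmo4 rose by 1.03 ± 0.17 (edgeR, largest adjusted p of the 4 = 4.7e-04). With 1 mM against 0.1 µM melatonin under LPS, 2 fell and 1 rose (median -0.07 beside 0.06). Lmo4 fell by 0.59 ± 0.17 (adjusted p = 0.0244) and Zfp652, an ETO2-binding zinc finger gene, rose by 0.85 ± 0.22 (0.0099). The third, Bcl6, a repressor, passed narrowly (-0.92 ± 0.30, adjusted p = 0.0496) and was lost without any 1 of the 6 libraries (0.0525 to 0.187). Its call was also lost without the filter on low counts (0.0582), with a replicate block (0.0549) and in a fit of only those 6 libraries (0.0686). The Lmo4 call was lost without replicate 2 or 3 of LPS with 0.1 µM (0.0793 and 0.0763) or replicate 1 or 3 of LPS with 1 mM melatonin (0.115 and 0.0555), and that of Zfp652 without replicate 1 of LPS with 0.1 µM (0.0507) or replicate 2 of LPS with 1 mM (0.0518). Both calls were also lost in a fit of only the compared libraries (0.109 for Lmo4 and 0.0579 for Zfp652).

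Of 18 tested genes of the cytohesin and integrin pathway, 0 fell and 4 rose with LPS against solvent (median 0.43), opposite in direction to Cytip. Itgal, the alpha chain of the integrin LFA-1, had 18.0 ± 5.11 CPM with LPS and 0.150 ± 0.259 CPM, 3 counts in all, with solvent (adjusted p = 2.6e-05). Rap1b, a small GTPase that activates integrins, rose by 1.97 ± 0.14 and Arf1, a GTPase that cytohesins act on, by 0.66 ± 0.12. At 1 mM compared with 0.1 µM melatonin under LPS, 6 fell and 1 rose (median -0.34). Rap1b fell by 1.19 ± 0.14, Itgam, the integrin alpha M chain, by 1.57 ± 0.31 and Apbb1ip, a Rap1 effector, by 0.75 ± 0.17, and Icam1, the ligand of LFA-1, rose by 2.00 ± 0.44 (edgeR, largest adjusted p of the 4 = 0.0028). The Apbb1ip call was lost in a fit of only the compared libraries (adjusted p = 0.0597). Itgal in that comparison had 5.49 ± 3.83 CPM with 1 mM and 19.0 ± 3.25 CPM with 0.1 µM (adjusted p = 0.228).

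Beside Cmah, 3 of 19 tested genes of sialic acid synthesis and transfer fell and 1 rose with LPS against solvent (median -0.15). Over all genes tested, 8.09% fell and 8.4% rose there. St6gal1, an alpha-2,6-sialyltransferase, had 1.53 ± 2.17 CPM with LPS and 32.9 ± 4.73 CPM with solvent (-4.42 ± 0.66, adjusted p = 1.3e-06). St8sia4, a polysialyltransferase, fell by 1.93 ± 0.19 (5.8e-11) and St3gal1 rose by 0.83 ± 0.22 (0.0059). St6galnac6 fell by 1.92 ± 0.59 (0.0175), a call lost without replicate 3 of solvent (0.119) or replicate 2 or 3 of LPS (0.0927 and 0.0662). Under LPS with 1 mM against 0.1 µM melatonin, 0 fell and 2 rose (median 0.20), St6gal1 and St8sia4. St6gal1 had 6.94 ± 1.46 CPM with 1 mM and 1.53 ± 1.85 CPM with 0.1 µM (2.17 ± 0.65, adjusted p = 0.0286), and St8sia4 had 120.4 ± 17.7 against 71.1 ± 14.6 CPM (0.76 ± 0.18, 0.0046). The St6gal1 call was lost without replicate 2 or 3 of LPS with 0.1 µM (0.173 and 0.148) or replicate 2 of LPS with 1 mM (0.0907), and that of St8sia4 without replicate 2 of LPS with 0.1 µM (0.0713). Both calls were also lost in a fit of only the compared libraries (0.226 for St6gal1 and 0.0748 for St8sia4).

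Of 20 purine receptor and Gi genes, 10 were tested, and 3 fell and 1 rose with LPS against solvent (median -0.51). P2ry13, the other Gi-coupled ADP receptor, had no read in the LPS libraries and 7.08 ± 0.694 CPM with solvent (adjusted p = 0.0082). It had no read either in the 12 libraries of LPS with 0.1 to 100 µM melatonin and 5 counts, all in 1 library, with LPS and 1 mM. Gnai2, a Gi subunit, fell by 0.55 ± 0.11 (2.3e-04) and P2rx7, an ATP-gated channel, by 1.99 ± 0.52 (0.0041), and Adora2b, an adenosine receptor, rose by 3.83 ± 0.90 (0.0015). For 1 mM against 0.1 µM melatonin under LPS, 1 fell and 0 rose (median 0.15), the UDP receptor gene P2ry6 (-1.69 ± 0.30, adjusted p = 1.2e-04).
Among 13 tested genes of the resting microglial programme, to which P2ry12 belongs, 7 fell and 0 rose with LPS (median -1.43). Siglech had 2.05 ± 3.15 CPM with LPS and 68.6 ± 12.0 CPM with solvent (-5.03 ± 0.56, adjusted p = 2.4e-09), Rnase4 fell by 2.37 ± 0.30 and Cst3 by 1.43 ± 0.16. In LPS-treated cells at 1 mM against 0.1 µM melatonin, 2 fell and 1 rose (median -0.07). Cx3cr1, the fractalkine receptor, fell by 1.32 ± 0.27 (6.7e-04) and Csf1r, the receptor of colony-stimulating factor 1, by 0.77 ± 0.21 (0.0172). The Csf1r call was lost without replicate 2 of LPS with 0.1 µM (0.0628) or replicate 3 of LPS with 1 mM (0.157, at -0.43), and in a fit of only the compared libraries (0.162). Siglech had 3.73 ± 0.480 CPM with 1 mM and 3.91 ± 2.40 CPM with 0.1 µM under LPS (adjusted p = 0.983).

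Few other genes of the B lineage were detected. Of 35 B-lineage and immunoglobulin genes, 7 had no count in any library and 5 were tested. Cd79b had 1 count over the 36 libraries, Ms4a1 3, Igkc 4, Pax5 7, Cd79a 17 and Ebf1 20, while Ighm had 997 counts in the 3 LPS libraries alone. With LPS against solvent, 0 of the 5 fell and 1 rose (median 0): Pou2f2, the Oct-2 gene, had 440.4 ± 27.6 CPM with LPS and 90.0 ± 2.46 CPM with solvent (2.29 ± 0.22, adjusted p = 7.1e-11). When 1 mM was set against 0.1 µM melatonin under LPS, 2 fell and 0 rose (median -0.83): Blnk, a B-cell adaptor also found in macrophages, by 1.28 ± 0.31 (0.0048) and Pou2f2 by 0.83 ± 0.21 (0.0082), the opposite direction to Ighm. In the LPS response at 0.1 µM, 2 of the 5 were called higher and 1 lower (median 0.87). Pou2f2 was higher by 2.59 ± 0.23 (edgeR adjusted p = 4.2e-12) and Blnk by 0.87 ± 0.31 (0.0448). The gene called lower was Cd24a, a surface glycoprotein gene also used outside B cells. Cd24a had 0.265 ± 0.459 CPM with LPS and 0.1 µM melatonin, against 8.71 ± 2.99 CPM with 0.1 µM alone (-4.95 ± 1.26, adjusted p = 0.0035). With LPS alone it had 1.71 ± 1.17 CPM, against 7.25 ± 2.61 CPM with solvent (adjusted p = 0.195), and Cr2, a complement receptor gene, had 0.859 ± 0.720 CPM with LPS and 3.75 ± 2.56 CPM with solvent (adjusted p = 0.379). Both were named after their values were seen. The summed level of the 35 genes was 237 to 296 CPM with LPS and 1 mM melatonin, 458 to 523 CPM with LPS and 0.1 µM, 459 to 518 CPM with LPS alone and 125 to 152 CPM with solvent, and was mostly that of Pou2f2 and Blnk, which averaged 244 and 21.4 CPM with LPS and 1 mM melatonin.

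Markers of the cell type itself also differed between 1 mM and 0.1 µM melatonin under LPS. Of 9 tested macrophage markers, 7 fell and 0 rose with 1 mM against 0.1 µM melatonin under LPS (median -1.25), and their summed level was 3289 to 4414 CPM with 1 mM and 14970.1 to 15843 CPM with 0.1 µM. The sums were mostly those of Lyz2, Csf1r and Cd14, and Lyz2 had the largest part of the difference. Lyz2 had 1388 ± 73.0 CPM with 1 mM and 10292 ± 301 CPM with 0.1 µM. Spi1 did not fall, with 227 ± 13.3 and 213 ± 20.9 CPM. With LPS against solvent, 1 of 9 fell and 3 rose (median 0.35), with sums of 13019.6 to 13239.7 and 12589 to 13297 CPM. Without LPS, 1 of 9 fell and 0 rose with 1 mM melatonin against solvent (median -0.60). The sums with 1 mM melatonin alone were 4755 to 11606 CPM, in a group that holds a library whose profile went against the label. The part of these marker changes in the values of the 5 genes was not tested. Summed levels of T and NK cell markers (at most 13.8 CPM in any library), granulocyte and mast cell markers (at most 3.64 CPM) and fibroblast markers (at most 9.96 CPM) were far below those of macrophage markers but within the range of the 5 genes' own levels. The T-cell kinase gene Lck was called higher with LPS than with solvent (8.50 ± 3.56 CPM with LPS and 0.250 ± 0.432 CPM with solvent, edgeR adjusted p = 0.0242), and no other of these genes was called there or with 1 mM against 0.1 µM melatonin under LPS. The part of these genes in the values of the 5 was not tested.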

How the data were processed

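RNA of 36 RAW 264.7 libraries (Trizol extraction, Illumina TruSeq) was sequenced, per the labels. Per the submitters' processing notes, the authors used cutadapt for trimming and featureCounts with mm10 to make the deposited raw counts per gene. Tool versions, aligner, annotation release and strandedness are not given in the sources used here. The authors' deposited FPKM table, per length and sequenced reads, supplied symbols and the levels compared between genes.

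Genes kept by filterByExpr (16988 of 53465) were fitted in edgeR 4.0.16 (R 4.3.3) with 12 group means, TMM scaling and Benjamini-Hochberg adjustment. Groups at 0 counts give a fold as a bound against 3 counts over their libraries, and groups with 1 to 3 counts give none. Depths were 4203313 to 7590271 counts per library.

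The 5 genes and all gene lists were chosen with earlier results of these data known. Other named genes follow a rule: per gene the 3 protein-coding genes with the highest Pearson r of log2 CPM (prior count 2), and up to 3 list genes per direction with the smallest adjusted p. Replicate numbers do not pair the libraries (198 same-numbered pairs, r of deviations -0.0409 to 0.0503). No replicate pair agreed within sampling noise. Alternatives were RLE size factors, DESeq2 1.42.0, no filter, only the compared libraries, a replicate block, and leaving out each replicate or the 2 libraries whose profile went against the label. The model was tested on simulated data. Single-gene results of some list genes are not reported here, though the list counts include them.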

Additional observations from a re-analysis of the deposited data

Results flagged for a closer look

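The LPS response of Ighm differed between melatonin doses by a test of the difference itself. LPS with melatonin over melatonin alone was -0.50 ± 0.16 on the log2 scale at 1 mM and -2.49 ± 0.18 at 0.1 µM, a difference of 2.00 ± 0.24 (edgeR quasi-likelihood test, adjusted p = 3.2e-07). All 3 libraries of LPS with 1 mM melatonin lay above all 3 of LPS with 0.1 µM.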

How the results depend on the processing

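The result on Ighm held under every alternative run: its difference between the LPS responses at 1 mM and 0.1 µM was 1.89 to 2.10 with any 1 library left out, 1.99 with the replicate block and 1.94 without the 2 doubted libraries. The replicate numbers share no more than a number, and the replicate block changed no count of the 5 genes called. The number of the 5 genes called varied elsewhere. Without the filter on low counts, the LPS response at 1 mM exceeded that at 0.1 µM for 2, LPS with 100 µM against 10 µM called 1, and against LPS alone 2 were higher with 0.1 µM, 3 with 1 µM, 1 with 10 µM and 2 with 100 µM. With DESeq2 the LPS responses differed for 2, and against LPS alone 2 were higher with 1 µM and 1 with 10 µM. With only the compared libraries, 1 was higher with 1 mM against 100 µM and 1 against 0.1 µM, and against LPS alone 0 with 0.1 µM, 0 with 1 µM, 0 with 100 µM and 2 with 1 mM. With 1 library left out in turn, the counts were 1 to 2 for 1 mM against 0.1 µM, 1 to 2 for the difference of the LPS responses, and against LPS alone 0 to 1 with 0.1 µM, 0 to 2 with 1 µM, 0 to 1 with 10 µM and 0 to 1 with 100 µM. The cause was not tested, beyond fewer samples in the fit. Signs turned, none past the threshold, for Cmah with 1 mM against 100 µM (-0.14 to 2.69 with 1 library left out) and for P2ry12 with 1 mM against 0.1 µM (-5.69 to 5.63) and in the difference of its LPS responses (-5.97 to 5.35, and 1.04 without the 2 doubted libraries). At 0 to 37 counts per library under LPS with the lower doses, depth does not allow smaller returns of Cbfa2t3, Cytip, Cmah and P2ry12 to be told from 0.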
